A study of Mus musculus with 12 samples.

Results

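Untreated TM3 cells are described here from the control channel of all 12 arrays of the series, which was red on replicate 1 and green on replicate 2. These channels were chosen by label and colour alone, and they are 12 of the 24 channels in all. TM3 is an established cell line from mouse testis, labelled as Leydig cells. Its cells had been kept in culture medium alone for 3, 8 or 24 h, with 4 control channels per time, and each control RNA was hybridized beside RNA of cells given 1 mM or 5 mM MAA (methoxyacetic acid, which is toxic to the testis) over equal hours. Pools of 3 cultures gave the RNA, and the 12 arrays, of 2 colours each, lay on 3 slides of 4. Nothing in the labels states whether the control pools of replicate 1 and replicate 2, or of the 1 mM and 5 mM arrays of the same time, were separate, so the p-values given here may measure technical spread. The RNA is bulk RNA, in which fewer cells of a kind and less RNA per cell cannot be told apart.

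Checked against 5 defining markers of Leydig cells, the label held for some markers and not for others. The control channel was well above background on all 12 arrays at the probes of Insl3, Star and Cyp17a1, and on 0 of 12 arrays for Lhcgr and Cyp11a1. Insl3 shares its end with another detected gene, Jak3, as described with its values. The samples are therefore called untreated TM3 cells, by the name of the line. Beside these genes the cells carried signal for 28 of 33 fibroblast and mesenchymal genes and for all 19 genes of cholesterol supply that had a probe, where 64.9% of all genes were detected.

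As background, Leydig cells lie between the seminiferous tubules of the testis and make androgens from cholesterol when luteinizing hormone binds its receptor, Lhcgr, and raises cAMP. The carrier Star brings cholesterol into mitochondria, Cyp11a1 cuts its side chain to give pregnenolone, and Hsd3b1, Cyp17a1 and Hsd17b3 turn pregnenolone stepwise into testosterone. Insl3 is a peptide hormone of Leydig cells that acts in the descent of the testis, and Nr5a1 is a nuclear receptor that switches on many of the steroid genes.

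The bases before the start of 5 genes are shown because the genes fell on either side of detection: the probes of Insl3, Pdgfra and Col1a2 were well above background on all 12 arrays, and those of Lhcgr and Cyp11a1 on none. Pdgfra encodes a receptor for platelet-derived growth factor found on mesenchymal cells and Leydig cell progenitors, and Col1a2 a chain of type I collagen. Each line gives the 250 bases before a start listed by RefSeq in build GRCm38.p6, 5′ to 3′ on the strand of the gene. Capitals mark the letters GGGCGG or, on the other strand, CCGCCC, the core of a GC box.
Insl3: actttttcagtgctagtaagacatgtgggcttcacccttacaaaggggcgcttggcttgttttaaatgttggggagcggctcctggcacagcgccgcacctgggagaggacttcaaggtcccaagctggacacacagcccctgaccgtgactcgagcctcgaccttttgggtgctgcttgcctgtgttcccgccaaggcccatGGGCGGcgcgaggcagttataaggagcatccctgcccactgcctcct
Lhcgr: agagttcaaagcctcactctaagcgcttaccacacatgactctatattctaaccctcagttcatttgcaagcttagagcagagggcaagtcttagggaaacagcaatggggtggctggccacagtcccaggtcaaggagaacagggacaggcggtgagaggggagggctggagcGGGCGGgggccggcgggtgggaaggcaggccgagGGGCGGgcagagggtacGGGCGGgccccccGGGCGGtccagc
Cyp11a1 upstream start: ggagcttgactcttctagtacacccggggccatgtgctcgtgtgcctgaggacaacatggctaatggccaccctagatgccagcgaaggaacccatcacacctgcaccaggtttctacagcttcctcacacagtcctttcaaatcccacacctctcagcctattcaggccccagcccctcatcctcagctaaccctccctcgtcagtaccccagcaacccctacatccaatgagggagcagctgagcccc
Cyp11a1 downstream start: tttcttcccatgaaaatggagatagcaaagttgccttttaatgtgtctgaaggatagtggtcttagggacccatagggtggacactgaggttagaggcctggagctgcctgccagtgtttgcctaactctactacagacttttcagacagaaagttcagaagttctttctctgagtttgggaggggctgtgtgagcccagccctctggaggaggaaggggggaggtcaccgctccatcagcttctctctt
Pdgfra: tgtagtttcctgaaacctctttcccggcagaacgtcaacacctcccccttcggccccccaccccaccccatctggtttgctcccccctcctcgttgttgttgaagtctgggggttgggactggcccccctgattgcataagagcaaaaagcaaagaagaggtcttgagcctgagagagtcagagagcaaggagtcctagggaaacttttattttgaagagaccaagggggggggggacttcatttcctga
Col1a2: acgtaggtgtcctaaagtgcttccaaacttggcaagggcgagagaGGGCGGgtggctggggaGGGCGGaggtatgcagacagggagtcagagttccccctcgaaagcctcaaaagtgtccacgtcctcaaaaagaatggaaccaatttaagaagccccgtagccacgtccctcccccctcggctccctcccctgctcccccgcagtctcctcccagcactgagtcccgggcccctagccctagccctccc
The Insl3 stretch lies at chr8:71689002-71689251 on the plus strand and holds 1 match. The Lhcgr stretch, at chr17:88792015-88792264 on the minus strand, holds 4 matches. RefSeq lists 2 starts of Cyp11a1, and neither stretch, at chr9:57997774-57998023 and chr9:58014702-58014951 on the plus strand, holds a match. Pdgfra, at chr5:75152001-75152250 on the plus strand, holds 0 matches, and Col1a2, at chr6:4505368-4505617 on the plus strand, holds 2. RefSeq spans of genes can begin before the start used here: the last 45 bases of the Lhcgr stretch, with 3 of its matches, and the whole of the Pdgfra stretch lie inside the span of the gene. So does the stretch before the downstream start of Cyp11a1. A detected and an undetected gene were thus found among those with matches, and likewise among those without. For Star and Cyp17a1 no such sequence was at hand.

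The 12 control channels resembled each other closely, and time in culture separated them more than the replicate number did. Over 23994 probes well above background on all 12 arrays, the SD of the difference between arrays of the same time and replicate number had a median of 0.15 log2. It was 0.26 between replicate numbers of the same time, which also differ in dye. Between times it was 0.52 for 3 h against 8 h, 0.53 for 8 h against 24 h and 0.76 for 3 h against 24 h. The median processed signal of the control channel lay between 54.5 and 130.2 (median 82.9), and no probe was saturated on any array. Between 61.5% and 70.4% of probes were well above background on an array, by the flag that the scanning software sets for each spot and colour. That share had a median of 62.7% at 3 h, 65.8% at 8 h and 67.6% at 24 h, and of 67.5% on replicate 1 and 64.2% on replicate 2. The part of these differences in the detection of single genes was not tested.

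Untreated TM3 cells gave a signal well above background on every array for 10397 of 16017 genes, or 64.9%. Only genes whose symbol could be given to a probe here are counted, and they are called genes with a probe. A further 2916 genes passed on some arrays, and 2704, or 16.9%, on none. Here and throughout, a gene is called detected when the control channel was well above background on every array where its spot was kept, and it takes its probe with the most such arrays. Signals are normalized signals, which are scanner intensities set to a common distribution over the 12 control channels. The study's signal classes were applied as fixed limits: the mean was over 200, modest or high, for 8696 genes (54.3%), and under 50, low to undetectable, for 6255 genes (39.1%), 645 of them detected. The lowest signal that still passed lay between 6.25 and 16.5 depending on the array. The flag, not this limit, decides: a Gata4 probe that did not pass on a 3 h array read 20.4. The lowest passing signal of that array was 16.5. Signals of spots that did not pass are therefore not read as levels. Array probes differ in how well they bind, and no level is therefore set against that of another gene.

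**Figure D1:**
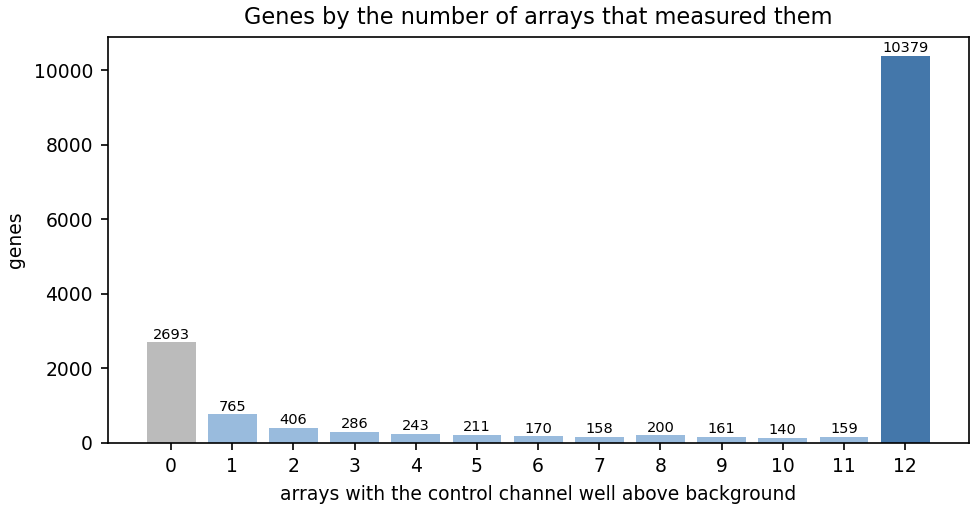
Number of genes (vertical axis) by the number of arrays on which the control channel was well above background (horizontal axis), for genes with the spot kept on all 12 arrays. 10379 genes passed on all 12 arrays and 2693 on none, and the bars between them are far lower.

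Probes of the same gene did not always fall in the same class. Of 5028 genes with several probes, 952 had probes in different classes, and for 177 of these a probe passed on every array while another passed on none. Where this touches a gene named here, both results are given.

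Insl3 was detected, with a limit set by where its gene lies. Its probe was well above background on all 12 arrays, with a normalized signal between 242 and 697 (median 418), over 200 on each array. The mean log2 signal was 8.70 ± 0.58 (SD, n = 12). By time the signal was 261 at 3 h, 419 at 8 h and 655 at 24 h, and the 3 times did not overlap. The 24 h signal was 1.33 ± 0.13 (SE) log2 above that at 3 h, which passed the test over time (adjusted p = 0.0235), and within the 3 slides the difference was 1.47, 1.16 and 1.22. In RefSeq, however, Insl3 (chr8:71689252-71690577) lies inside the span of Jak3 (chr8:71676383-71690577) on the same strand, and both end at the same base. Jak3 encodes a kinase of cytokine receptors, and its 2 probes were well above background on all 12 arrays, at 66.9 to 119 and 95.8 to 138. From 3 h to 24 h they differed by 0.51 and -0.13 log2, and neither passed the test (adjusted p = 0.151 and 0.801). How much of the Insl3 signal came from RNA of Jak3 cannot be told apart, since the files do not give the place of the probe.

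Star and Cyp17a1 were detected, with mean signals between the study's limits of 50 and 200 in the main processing. Star (chr8:25808474-25815982) lay between 69.2 and 121 (median 101), with a mean log2 signal of 6.61 ± 0.23 (SD, n = 12), and its other probe lay between 53.8 and 114, also on all 12 arrays. Cyp17a1 (chr19:46667165-46673000) lay between 58.6 and 101 (median 69.3), with a mean log2 signal of 6.20 ± 0.27 (SD, n = 12). After the normexp background correction with an offset of 50 the mean log2 signals were 8.07 for Star and 7.63 for Cyp17a1. That offset is added to every signal, so the limits of 50 and 200 do not carry over and no class is read there. By time the mean signal of Star was 113 at 3 h, 83.1 at 8 h and 99.2 at 24 h, and that of Cyp17a1 86.1, 63.2 and 72.4. The mean of Cyp17a1 was lowest at 8 h through replicate 1 alone, while on replicate 2 both arrays of 24 h read lower than those of 8 h. These differences did not pass the test over time (adjusted p = 0.164 for Star and 0.343 for Cyp17a1), while the other probe of Star did (adjusted p = 0.0445). Both genes passed it in the 4 fits on the 12 arrays in place of means of 2, which have more residual degrees of freedom. On means without the replicate block neither passed (adjusted p = 0.163 for Star and 0.383 for Cyp17a1). The call thus depends on whether means or single arrays, which may share RNA, are fitted. For Cyp17a1 each array of 3 h read higher than each of 8 h, and those of 24 h overlapped both.

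Lhcgr and Cyp11a1 were not well above background on any array. The Lhcgr probe (chr17:88716384-88792059) read between 2.40 and 2.64 (median 2.52). The probes of Cyp11a1 (chr9:57998024-58027031) read between 2.31 and 6.40 (median 3.77) and between 2.48 and 6.61. Each of these values lay under the lowest passing signal of its own array, and they are not read as levels. With the software's weaker flag, for a signal positive and significant against background, Cyp11a1 passed on 83.3% of arrays and Lhcgr on 0%.

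**Figure D2:**
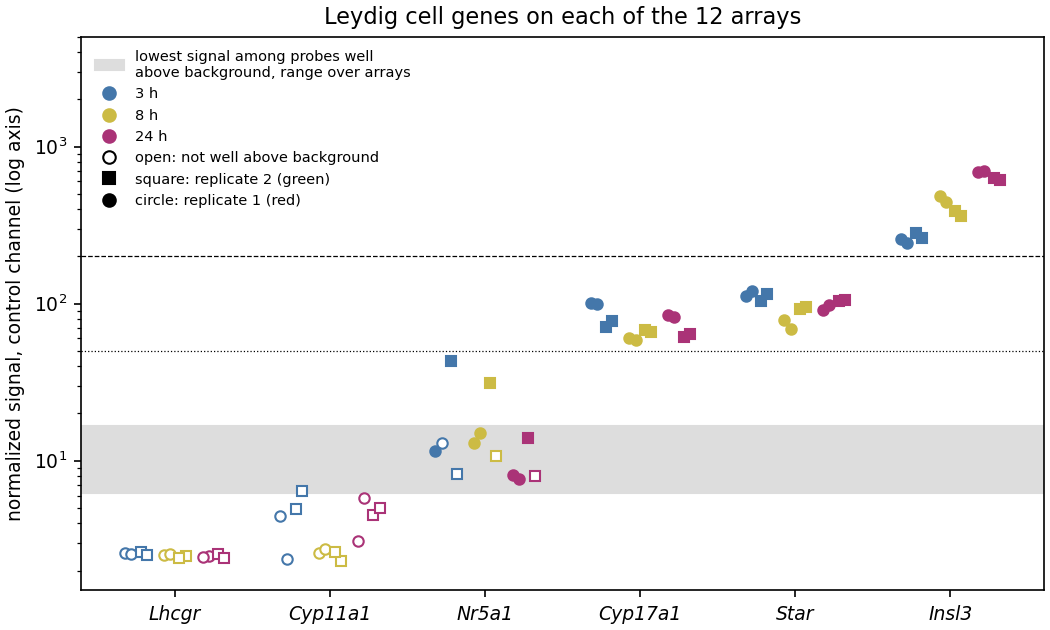
Normalized signal of the control channel (vertical, log axis) for 6 Leydig cell genes on each of the 12 arrays, by time (colour) and replicate (circle or square), with the range over arrays of the lowest signal well above background in grey and limits of 50 and 200 as lines. Open symbols, which include all those of Lhcgr and Cyp11a1, are spots not well above background.

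The enzymes on either side of Cyp17a1 in testosterone synthesis were not detected, while the electron carriers of the P450 enzymes were. Of 20 other enzymes of steroid metabolism and their redox partners with a probe, 11 were detected, beside 64.9% of all genes, 5 passed on some arrays and 4 on none. The 4 were Hsd3b1 and Hsd3b6, which make progesterone from pregnenolone, Srd5a1, a 5-alpha reductase, and Cyp21a1, the adrenal 21-hydroxylase. Hsd17b3, which makes testosterone, passed on 1 of 12 arrays, and so did Cyp19a1, the aromatase, with its other probe on none. Por, which passes electrons to microsomal cytochromes P450, lay between 7416 and 11237 (median 9253). Fdx1 and Fdxr, the redox partners of mitochondrial P450 enzymes such as Cyp11a1, lay between 6891 and 8442 (median 7305) and between 4318 and 6393 (median 5535). Cyb5a, the cytochrome b5 that aids the lyase step of Cyp17a1, lay between 24785 and 32748 (median 30192). The detected members also included the 17-beta dehydrogenases Hsd17b4, Hsd17b7, Hsd17b10, Hsd17b11 and Hsd17b12, which act widely on fatty acids and sterols. Of the 20 genes, 10 passed the test over time, where 39.1% of all genes did. That share, here and below, covers all genes with a probe, detected or not. Of the probes detected on all arrays, 48.1% passed. At 24 h, 7 were higher than at 3 h and 4 lower, against 19.5% and 21.1% of all genes, and with each channel scaled to the same median the split turned to 1 higher and 5 lower. It was 8 and 1 without normalization between arrays. Of all detected probes called, 23.5% were higher at 24 h with the scaling to the same median and 77.4% without normalization.

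Of 16 transcription factors of Leydig cells and their progenitors, 11 were detected, a share near the 64.9% of all genes, 4 passed on some arrays and Nr0b1, a repressor of steroid genes, on none. Nr5a1, the master regulator of steroid genes, passed on 8 of 12 arrays and read between 7.68 and 43.4 (median 12.3), with the highest values on single arrays of 3 h and 8 h. Gata4, a regulator of gonad development, rose from 33.5 at 3 h to 95.5 at 24 h (difference 1.51 ± 0.14 log2, adjusted p = 0.020), and its other probe passed on 11 of 12 arrays. The related Gata6 read between 17456 and 41805 (median 34071), with a further probe passing on 3 arrays. Nr2f2, an orphan receptor of interstitial progenitors, read between 6974 and 21783 (median 8478), and Nr4a1, which is switched on by LH signalling, between 1091 and 1642 (median 1228). The factors of early gonad formation Wt1, Lhx9 and Emx2 were detected as well, as were Zfpm2 and Cebpb. Tcf21, Nr5a2 and Nr0b2 passed on 3, 4 and 2 arrays. Of these genes, 9 passed the test over time, where 39.1% of all genes did, with 7 higher at 24 h than at 3 h and 1 lower, against 19.5% and 21.1% of all genes, or 3 and 2 after scaling to the same median and 8 and 0 without normalization.

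Of 9 other genes used as markers of Leydig cells or their progenitors, 8 were detected, beside 64.9% of all genes, and Ren1, renin, passed on 3 arrays. Pdgfra read between 38367 and 48553 (median 43845), and its other probe between 252 and 401. The adhesion molecule Vcam1 read between 26289 and 56049 (median 27686) and was 0.97 ± 0.05 log2 higher at 24 h than at 3 h (adjusted p = 0.0116). Signals for Prlr, the prolactin receptor, lay between 31.7 and 53.3 (median 39.8), and those for Ptch1, the receptor of desert hedgehog, between 12.4 and 31.5 (median 22.5), both under 50 on average. Thbs2, Nes, Ptgds and Aldh1a1 completed the detected members. The test over time was passed by 6, beside 39.1% of all genes and 48.1% of the probes detected on all arrays. At 24 h, 5 were higher and 1, Ptch1, lower, against 19.5% and 21.1% of all genes, or 7 and 0 without normalization.

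Most genes that carry the cAMP signal were detected although the LH receptor itself was not. Of 16 genes of cAMP signalling, 14 were detected, beside 64.9% of all genes, Adcy3 passed on 9 arrays and Pde4d, a phosphodiesterase, on none. Gnas, the stimulatory G protein, read between 15142 and 20915 (median 17995), while a further probe passed on no array. The adenylyl cyclases Adcy6, Adcy7 and Adcy9 read between 1321 and 1679 (median 1476), between 518 and 1206 (median 580.1) and between 181 and 344 (median 231). Both catalytic subunits of protein kinase A on the list, Prkaca and Prkacb, were detected, as were Creb1, Crem and the anchor Akap1. The test over time was passed by 10, beside 39.1% of all genes and 48.1% of the probes detected on all arrays. At 24 h, 5 were higher than at 3 h and 3 lower, against 19.5% and 21.1% of all genes. The split was 3 and 3 after scaling to the same median and 10 and 0 without normalization.

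Every gene of cholesterol uptake, synthesis and movement with a probe was detected, 19 of 19, beside 64.9% of all genes. The HDL receptor Scarb1 read between 4512 and 7244 (median 5344), and Hmgcs1, a synthase early in the making of cholesterol, between 23282 and 45229.7 (median 40220.0). The mitochondrial proteins Tspo and Vdac1 and the carriers Stard3 and Stard4 were detected too. At 24 h, 14 of the 19 were higher than at 3 h and 0 lower, against 19.5% and 21.1% of all genes. The split was 17 and 0 without normalization, and 10 and 1 with each channel scaled to the same median.

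Markers of the other cell types of the testis were mixed, beside 64.9% of all genes detected and 16.9% on no array. Of 11 Sertoli cell markers, 2 were detected, 5 passed on some arrays and 4, Dmrt1, Cldn11, Aard and Cst9, on none. The detected genes were Sox9, a factor of Sertoli cells and cartilage, which read between 57.5 and 229.9 (median 144) while a further probe passed on 3 arrays, and the homeobox gene Rhox5, which read between 155 and 277 (median 204). Amh and Fshr, the hormone and receptor that mark Sertoli cells, passed on 2 and 2 arrays. Of 15 germ cell markers, 3 were detected, 7 passed on some arrays and 5 on none, among them Sycp1, Nanos2 and Acrv1. Ddx4, the RNA helicase of germ cells, read between 461 and 1616 (median 704) and was 1508 at 3 h and 633 at 24 h (adjusted p = 0.0171). The protamine Prm1 read between 61.9 and 94.4 (median 80.7) with 1 of its 3 probes while another passed on no array, and Tnp1 read between 22.0 and 53.0 (median 31.5). Of 8 markers of myoid and smooth muscle cells, 5 were detected, a share near that of all genes, and Myh11, Des and Lmod1 passed on 5, 8 and 9 arrays. Acta2, smooth muscle actin, read between 14588 and 23642 (median 17117), Cnn1 between 177 and 443 (median 342), Tagln between 616 and 4315 (median 2169) and Actg2 between 1753 and 2326 (median 2014). With the weaker flag the detected genes were 4 of 11, 6 of 15 and 8 of 8 on these lists, and 11827 of 16017 over all genes.

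Several defining genes of leukocytes, blood vessels and epithelium were not detected, although some members of each list were. Ptprc, Adgre1, Cd163 and Itgam, which mark leukocytes and macrophages, passed on no array, and Pecam1, Cdh5 and Kdr of endothelium on none either. Of the epithelial genes, Cdh1 and Epcam passed on 5 and 1 arrays and Esrp1 on none. Of the leukocyte genes 4 of 10 were detected, Cd14, Lyz2 and Cd3e among them, of the endothelial genes Flt1, Eng and Plvap (3 of 12, or 5 with signal asked for on at least 6 arrays), and of the epithelial genes Krt8, Krt18, Krt14 and Ocln (4 of 10), beside 64.9% of all genes. With signal asked for on at least 6 arrays, 6 leukocyte and 6 epithelial genes counted as well, beside 11389 of 16017 over all genes. Cd14, a receptor for bacterial lipopolysaccharide, read between 588 and 937 (median 863). Lyz2, lysozyme, rose by 2.98 ± 0.10 log2 from 146 at 3 h to 1149 at 24 h (adjusted p = 0.0116). Cd3e, of T cells, had a mean signal under 50, between 27.4 and 82.5 (median 43.0). The VEGF receptor Flt1 rose from 23.4 at 3 h to 165 at 24 h (adjusted p = 0.0116), with its other probe on 8 arrays, and Eng and Plvap read between 104 and 152 (median 125) and between 36.1 and 58.8 (median 46.4). The keratins Krt8 and Krt18 fell, from 988 to 144 and from 367 to 177 (adjusted p = 0.0116 and 0.0170), and Krt14 rose from 314 to 530.1 (adjusted p = 0.0168). For Ocln, of tight junctions, 1 probe read between 384 and 602 (median 528) and the other passed on no array.

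As references, all 13 genes used in every cell were detected, each over 200, and 2 of 22 genes of other organs were, beside 64.9% of all genes, while 11 passed on none, among them Alb, Ttr, Gcg, Myh6, Ckm and Sftpc. The 2 were the keratin Krt10, which read between 1286 and 1705 (median 1586) with another probe on 3 arrays, and Prl, prolactin of the pituitary, which read between 9453 and 33950.0 (median 17148). They are named after their values were seen. The weaker flag added members of this list to give 5 of 22.

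**Figure D3:**
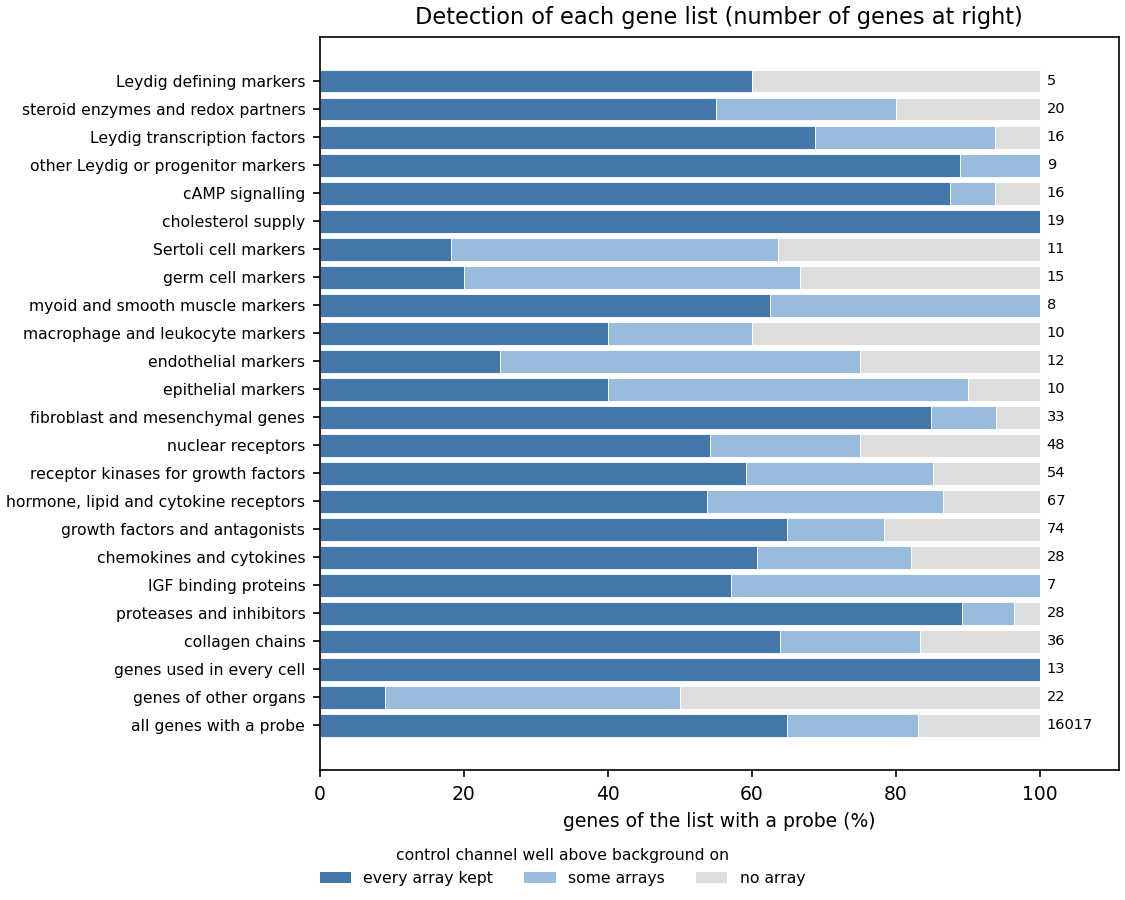
Share of the genes of each list with a probe (horizontal axis, percent) detected on every array kept, on some arrays and on no array, with the number of genes at the right of each bar. Cholesterol supply and the genes used in every cell are filled entirely by genes detected on every array, and the genes of other organs have 2 of 22.

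Fibroblast and mesenchymal genes were detected in 28 of 33 cases, beside 64.9% of all genes, and 24 of them were over 200 on average, beside 54.3% of all genes. Vim, the intermediate filament of mesenchymal cells, read between 68677 and 91835 (median 82166). The PDGF receptors Pdgfra and Pdgfrb were both detected, Pdgfrb between 3718 and 10150.3 (median 6505), and fibronectin, Fn1, read between 56105 and 85084 (median 59047). Matrix genes on the list, Sparc, Dcn, Fbn1, Fbln1, Fbln2 and Lox among them, were detected, and so were the factors Twist1, Twist2, Prrx1, Snai1, Snai2, Zeb1 and Zeb2 that act in mesenchyme. Thy1, the surface marker of many fibroblasts, passed on no array, and nor did Nt5e. Cd44, Postn and Mfap5 passed on 7, 5 and 8 arrays. Tnc had a probe on all 12 arrays and another on none. Of the 33 genes, 23 passed the test over time, beside 39.1% of all genes and 48.1% of the probes detected on all arrays. At 24 h, 20 were higher than at 3 h and 5 lower, against 19.5% and 21.1% of all genes. The split was 16 and 5 with each channel scaled to the same median and 25 and 1 without normalization. The median SD over the 12 arrays of the detected members was 0.41 log2, against 0.24 over all detected genes.

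Among members that moved with time, chosen after their values were seen, Thbs1, a matrix glycoprotein, rose by 2.30 ± 0.07 log2 from 7932 at 3 h to 39041 at 24 h (adjusted p = 0.0116). Dermatopontin, Dpt, rose from 51.0 to 245 (adjusted p = 0.0123) and decorin, Dcn, from 31484 to 71942 (adjusted p = 0.0127). Ddr2, a collagen receptor, fell from 1287 to 724 (adjusted p = 0.0123).

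Of 36 collagen chains with a probe, 23 were detected, a share near the 64.9% of all genes, 7 passed on some arrays and 6, Col10a1, Col13a1, Col19a1, Col26a1, Col6a6 and Col8a2, on none. The chains of type I, Col1a1 and Col1a2, read between 105113 and 137485 (median 118607) and between 97141 and 156146 (median 120499.8), and Col3a1 of type III between 86981 and 156146 (median 110036). The highest value is the same for Col1a2 and Col3a1 because the common distribution gives equal ranks on different arrays the same normalized signal. Chains of types IV, V and VI were detected too, except for Col4a3, which passed on 3 arrays, and Col6a6. Col2a1, the collagen of cartilage, read between 12559 and 30465 (median 18228). These 4 are named with values after they were seen. Col11a1, Col11a2, Col14a1 and Col16a1 were detected with 1 probe between 290.4 and 1769 (median 1448), between 69.8 and 147 (median 125), between 27.1 and 173 (median 91.6) and between 10446 and 25317 (median 13067), and each had another probe on 0 to 4 arrays. At 24 h, 18 chains were higher than at 3 h and 0 lower, against 19.5% and 21.1% of all genes, or 13 and 3 with each channel scaled to the same median, 21 and 0 without normalization and 19 and 1 after the normexp background correction. The 18 include chains not detected on every array. For Col23a1 the mean of 13.4 at 24 h lay under 14.2, the geometric mean of the lowest passing signals at 3 h. Col5a3, singled out after its values were seen, rose by 3.08 ± 0.32 log2 (adjusted p = 0.0250), with its other probe on 1 array.

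Sex steroid receptors were split. Esr1, the estrogen receptor alpha, was detected between 157 and 269.9 (median 178), although its other probe passed on 2 arrays, whereas Pgr and Esr2, the receptor of progesterone and the beta form for estrogen, passed on none. Over 48 nuclear receptors with a probe, 26 were detected, beside 64.9% of all genes, 10 passed on some arrays and 12 on none. Nr3c1, the glucocorticoid receptor, read between 1185 and 1888 (median 1709.8), Thra, a thyroid hormone receptor, between 10829 and 21069.9 (median 12465), and Rara, a retinoic acid receptor, between 76.0 and 154 (median 90.8). Vdr, Pparg, Ppara, Nr1h2 and Rxrb were detected, and Nr1i2, Rxrg, Rorb and Esrrb were not on any array. At 24 h, 8 were higher than at 3 h and 13 lower, against 19.5% and 21.1% of all genes. The split turned to 13 higher and 4 lower without normalization between arrays, and was 5 and 23 with each channel scaled to the same median. Of all detected probes called, 77.4% were higher without normalization and 23.5% with that scaling. The clock receptors Nr1d1 and Nr1d2, named after their values were seen, fell from 142 at 3 h to 78.0 at 24 h and from 8227 to 5006 (adjusted p = 0.0415 and 0.0136).

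Receptor kinases for growth factors were detected in 32 of 54 cases, beside 64.9% of all genes, with 14 on some arrays and 8 on none. Egfr, the EGF receptor, read between 11962 and 25578 (median 17663) and rose by 1.02 ± 0.07 log2 from 3 h to 24 h (adjusted p = 0.0145). The FGF receptors Fgfr1 and Fgfr2 read between 652 and 939 (median 826) and between 1367 and 2250.4 (median 1703), and 1 probe of Fgfr3 read between 34.6 and 89.4 (median 45.8) while another passed on none. Igf1r was detected, and Insr, the insulin receptor, passed on 6 arrays. The 8 on no array were Kdr, Kit, Flt4, Ntrk2, Ntrk3, Ret, Ror1 and Alk. Of the TGF-beta and BMP receptors on the list, Tgfbr1, Tgfbr2, Acvr1, Acvr2a, Acvr2b, Bmpr1a and Bmpr2 were detected, and Acvr1b, Acvrl1 and Bmpr1b passed on 6, 2 and 2 arrays. Amhr2, the receptor of anti-Müllerian hormone, was detected too. It fell from 3436 at 3 h to 1799 at 24 h (adjusted p = 0.0128) and is named after its values were seen. Over the list 27 genes passed the test over time, beside 39.1% of all genes, with 17 higher and 10 lower at 24 h than at 3 h, against 19.5% and 21.1% of all genes, or 15 and 15 after scaling to the same median and 23 and 4 without normalization.

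Of 67 receptors for hormones, lipid mediators and cytokines, 36 were detected, beside 64.9% of all genes, 22 passed on some arrays and 9 on none. The 9 included Lhcgr, Gnrhr, Agtr1b, Avpr2, Adrb3 and both relaxin family receptors of the list, of which Rxfp2 binds Insl3. Fshr and Tshr, the other glycoprotein hormone receptors, passed on 2 and 1 arrays. Ghr, the growth hormone receptor, rose from 6187 at 3 h to 25682 at 24 h (2.05 ± 0.06 log2, adjusted p = 0.0116). The vasopressin receptor Avpr1a read between 160.2 and 264 (median 235), and Mc2r, the ACTH receptor, between 27.4 and 58.5 (median 36.5), under 50 on average. Receptors of the interleukin 6 and interferon families were detected: Il6st, Lifr, Osmr, Il6ra, Ifnar1, Ifnar2, Ifngr1 and Ifngr2. At 24 h, 23 of the 67 were higher than at 3 h and 5 lower, against 19.5% and 21.1% of all genes, or 17 and 9 with each channel scaled to the same median and 28 and 0 without normalization.

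Agtr2, the type 2 angiotensin receptor, was well above background on 0 of 4 arrays at 3 h, on 4 of 4 at 8 h and on 4 of 4 at 24 h. Its mean signal at 24 h was 337, which is 23.8-fold the geometric mean of the lowest passing signals of the 3 h arrays, 14.2. Since the flag and not that signal decides, this is no strict lower bound. The contrast of 24 h against 3 h (adjusted p = 0.00628) rests on 3 h readings that did not pass. Ptger2, a prostaglandin E receptor named, like Agtr2, after its values were seen, likewise passed on 0 arrays at 3 h and 4 at 24 h. Its mean at 24 h was 2.72-fold that 14.2, and its contrast (adjusted p = 0.0293) has the same limit. Over all genes, 222 passed on all arrays of 24 h and none of 3 h, and 15 the other way round. The lowest passing signal itself had a median of 14.9 at 3 h and 8.85 at 24 h, and its part in these counts was not tested.

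Secreted growth factors and their antagonists were detected in 48 of 74 cases, the same share as the 64.9% of all genes, with 10 on some arrays and 16 on none. Igf1, which acts on Leydig cell growth, rose from 1866 at 3 h to 4746 at 24 h (adjusted p = 0.0116). Igf2 read 2026 at 3 h, 615 at 8 h and 2607 at 24 h, lowest at 8 h (adjusted p = 0.0118). Pdgfa, a ligand of Pdgfra, read between 9861 and 21752 (median 12910.5), and Pdgfb between 254 and 482 (median 392). Kitl and Csf1, whose receptors mark germ cells and macrophages, were detected, while Kit was not on any array. The hedgehog ligands Shh and Ihh passed on no array, and Dhh on 2. Ligands of the TGF-beta family were split: Tgfb1, Tgfb2, Tgfb3, Bmp1, Bmp4 and Inhba were detected, Inha by 1 probe with the other on 3 arrays, and Bmp2, Bmp6 and Bmp7 on no array. The Wnt antagonist Sfrp2 was detected, and Sfrp1 and Sfrp4 were on no array. In all, 39 passed the test over time, beside 39.1% of all genes, with 28 higher at 24 h than at 3 h and 7 lower, against 19.5% and 21.1% of all genes, or 23 and 15 with each channel scaled to the same median and 40 and 3 without normalization. Chosen after their values were seen, pleiotrophin, Ptn, rose from 841 to 14806 (4.14 ± 0.05 log2, adjusted p = 0.0116), Ccn1, a matricellular protein, from 1107 to 14921 (3.75 ± 0.07 log2, adjusted p = 0.0116), and Wnt4, of gonad development, fell from 976 to 177 (-2.47 ± 0.05 log2, adjusted p = 0.0116).

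Of 28 chemokines and cytokines, 17 were detected, a share near the 64.9% of all genes, 6 passed on some arrays and 5, Il1a, Il1b, Il15, Tnf and Csf2, on none. Ccl2, which draws monocytes, read between 8540.4 and 22709 (median 11128), Ccl7 between 3308 and 5472 (median 4568), Ccl5 between 24.4 and 44.4 (median 35.9) and Ccl8 between 29.0 and 67.8 (median 53.5). Cxcl12, Cxcl5 and Cxcl1 were detected too, and Il6 was, with a mean signal under 50. At 24 h, 12 were higher than at 3 h and 3 lower, against 19.5% and 21.1% of all genes, or 9 and 6 with each channel scaled to the same median and 17 and 2 without normalization. Named after their values were seen, the interleukin Il18 rose from 412 at 3 h to 2867 at 24 h and Il33 fell from 2057 to 407 (adjusted p = 0.0116 and 0.0116). Il7 passed on all 4 arrays at 3 h and on 0 at 24 h by 1 of its 2 probes. Its mean at 3 h was 3.64-fold the geometric mean of the lowest passing signals of the 24 h arrays, 8.56, which is no strict bound.

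Of 7 IGF binding proteins, 4 were detected, a share near the 64.9% of all genes. Igfbp4, Igfbp5, Igfbp6 and Igfbp7 were the 4, between 17069.7 and 23887 (median 18996), between 308 and 608 (median 389), between 17821 and 30504 (median 24745) and between 24561 and 56455 (median 41787), and Igfbp1, Igfbp2 and Igfbp3 passed on 7, 4 and 7 arrays. A further probe of Igfbp5 passed on none. Igfbp7 rose by 0.99 ± 0.08 log2 from 3 h to 24 h and the difference of Igfbp5 was -0.77 ± 0.08 log2 (adjusted p = 0.0182 and 0.0207). Over the list, 2 genes were higher and 2 lower at 24 h than at 3 h, against 19.5% and 21.1% of all genes. The split was 1 and 2 with each channel scaled to the same median, and 2 and 0 without normalization.

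Secreted proteases and their inhibitors were detected in 25 of 28 cases, beside 64.9% of all genes, with Timp4 and Ctsk on 11 and 10 arrays and the serpin Serpine2 on none. The gelatinase Mmp2 read between 5476 and 9991 (median 8281). The stromelysins Mmp3 and Mmp10 fell, from 1023 at 3 h to 125 at 24 h and from 233 to 13.9 (adjusted p = 0.0116 and 0.0122), whereas the gelatinase Mmp9 rose from 96.1 to 358 (adjusted p = 0.0116). Inhibitors of metalloproteases Timp1, Timp2 and Timp3, the plasminogen activator Plat and Serpinh1, a collagen chaperone, were detected. Plau had a probe on all 12 arrays and another on 3. Of the 28 genes, 21 passed the test over time, beside 39.1% of all genes and 48.1% of the probes detected on all arrays. At 24 h, 16 were higher than at 3 h and 5 lower, against 19.5% and 21.1% of all genes. The split was 8 and 8 with each channel scaled to the same median and 19 and 3 without normalization.

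Much of the expression of untreated cells differed between 3, 8 and 24 h. Of 41174 probes, 13321 passed the test over time, or 32.4%, and of the probes detected on all arrays 48.1% did. The contrasts gave 6668 probes for 8 h against 3 h, 13968 for 24 h against 3 h and 6796 for 24 h against 8 h. The range between the time means of a detected gene had a median of 0.47 log2, and it exceeded 1 log2 for 1682 genes. The fit averaged the 2 arrays of the same time and replicate number, which left 2 residual degrees of freedom. With the 12 arrays as separate samples the count was 23243, and with the slide as a block 23367 or, with the replicate block, 23093.

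Direction over time depended on how the channels were scaled. Of the detected probes called for 24 h against 3 h, 44.6% were higher at 24 h after quantile normalization, 77.4% without normalization between arrays and 23.5% with each channel scaled to the same median. The median difference of detected probes was -0.04, 0.33 and -0.31 log2 in the same order. Small differences between times are therefore relative to the scaling. What set the times apart was not tested. Of the cell type lists, 23 of 33 fibroblast and mesenchymal genes, 5 of 8 myoid, 4 of 15 germ cell, 5 of 10 leukocyte, 5 of 10 epithelial, 5 of 11 Sertoli cell and 1 of 12 endothelial markers passed the test over time, beside 39.1% of all genes. These counts include genes not detected on every array. Readings of spots that did not pass enter the test, although they are not read as levels. Of the probes called over time, 420 were above background on no array. The part of these lists in the other differences was not tested.

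The 10 detected genes with the largest range between time means changed by over 3 log2 from 3 h to 24 h. Of these, 6 fell. U90926, a transcript of unknown role, read 5095 at 3 h, 5155 at 8 h and 136 at 24 h (-5.23 ± 0.10 log2 at 24 h against 3 h, SE, n = 2 means of 2 arrays a time). Pglyrp3, a peptidoglycan recognition protein, read 564 at 3 h, 79.7 at 8 h and 17.1 at 24 h (-5.05 ± 0.08 log2). Cyp1a1, a P450 enzyme induced through the aryl hydrocarbon receptor, read 1799.9 at 3 h, 203 at 8 h and 57.4 at 24 h (-4.97 ± 0.10 log2). Pglyrp3 and Cyp1a1 fell already by 8 h, while U90926 did so only after it. Gsta2, a glutathione transferase, read 149 at 3 h, 259 at 8 h and 11.8 at 24 h (-3.65 ± 0.13 log2). Prl2c3 and Prl2c5, growth factors of the prolactin family also known as proliferins, read 72905 and 79525 at 3 h and 3802 and 4404 at 24 h (-4.26 ± 0.06 and -4.17 ± 0.09 log2). These are closely similar members of the same family, so their probes may read each other's RNA.

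The 4 that rose were Cbr2, a carbonyl reductase, at 69.0 at 3 h, 345 at 8 h and 2147 at 24 h (4.96 ± 0.06 log2), Cmbl, a hydrolase, at 139 at 3 h, 398 at 8 h and 3589.5 at 24 h (4.69 ± 0.24 log2), Fmo1, a flavin monooxygenase, at 520.2 at 3 h, 2566 at 8 h and 11536 at 24 h (4.47 ± 0.17 log2), and Prelp, a leucine-rich proteoglycan of the matrix, at 30.3 at 3 h, 143 at 8 h and 653 at 24 h (4.43 ± 0.19 log2). A further probe of Prelp passed on 3 arrays. For all 10 genes the adjusted p over time lay between 0.0116 and 0.0122, values shared by many probes. Within the slides the difference of Cbr2 was 4.90, 4.92 and 5.12, and that of U90926 -5.39, -4.93 and -5.19. The times did not overlap for Cbr2, Fmo1 or Prelp, which stepped up at 8 h and again at 24 h.

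**Figure D4:**
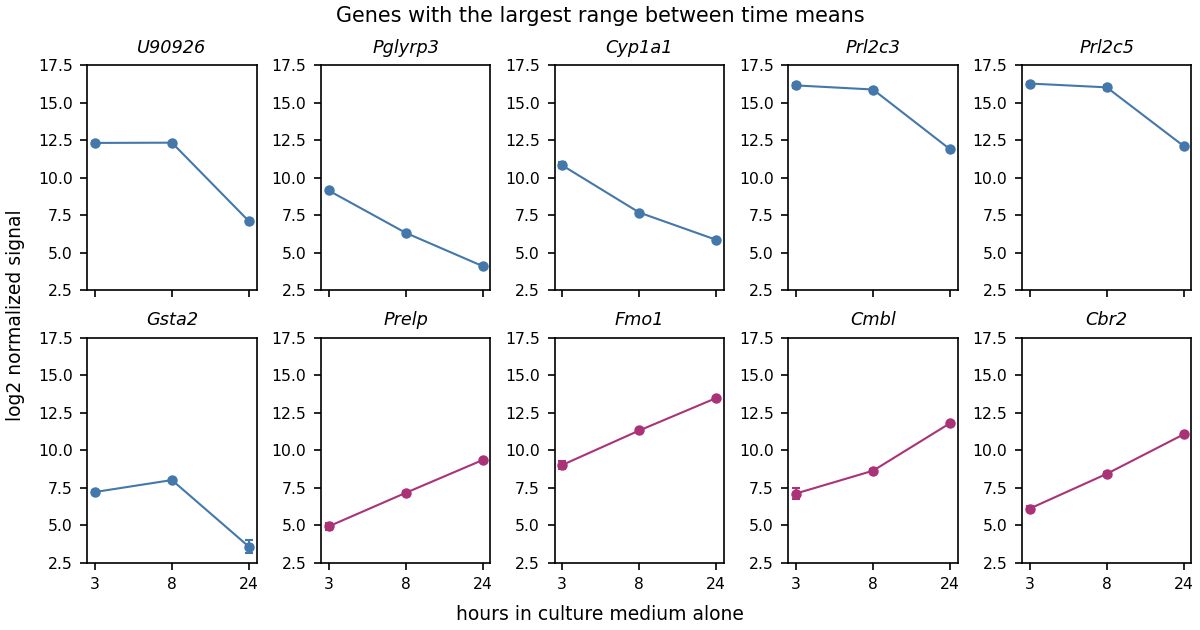
Mean log2 normalized signal of the control channel (vertical axis) at 3, 8 and 24 h in culture medium alone (horizontal axis) for the 10 genes, with bars for the SD over 4 arrays. 6 genes fell and 4 rose by 24 h, with bars shorter than the steps between 3 h and 24 h.

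Promoters of detected genes differed in base content from those of the others. Of 16017 genes with a probe, 12785 matched an entry of the RefSeq promoter table, which covers 250 bases before and 50 after each start. The letters GGGCGG, on either strand, stood in 61.7% of 10733 promoters of detected genes (95% Wilson interval 60.8% to 62.6%). The share was 32.6% for genes on some arrays, 26.9% for genes on none (interval 25.2% to 28.6%), 51.3% over all genes with a probe and 35.7% over all promoters of the table. The median number of CG dinucleotides was 20 in promoters of detected genes, 6 for genes on some arrays and 4 for genes on none. TATAAA, the letters of a TATA box, went the other way, with 7.73% in detected genes, 21.7% in genes on none and 13.6% over the table. CCAAT stood in 38.4% and 38.8%, and in 37.4% over the table. Genes are not independent replicates, and a match is a description of letters, not of a binding site. Among the sequences printed above, matches stood before the listed start of Lhcgr, which was not detected, and none before that of Pdgfra, which was. However, 3 of the 4 Lhcgr matches and the whole Pdgfra stretch lie inside the span of the gene.

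**Figure D5:**
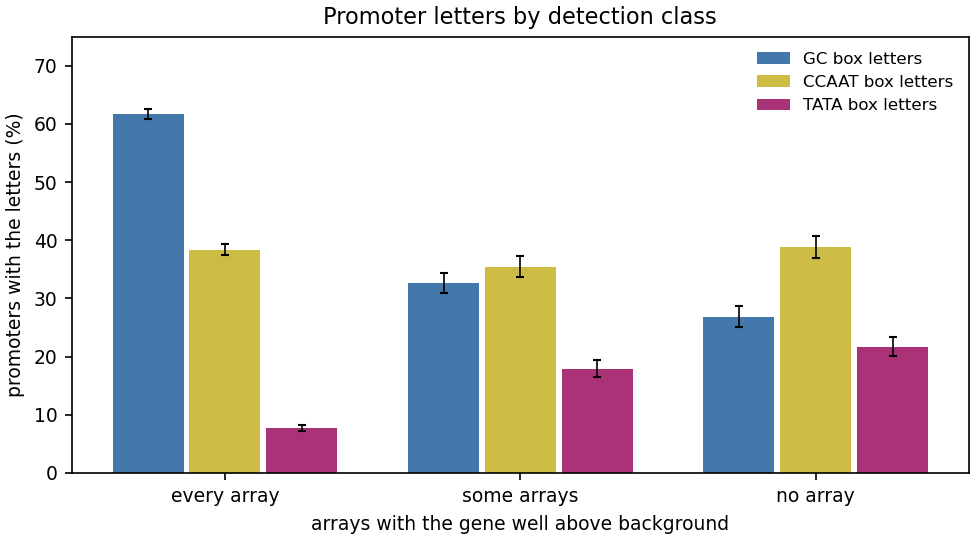
Share of promoters (vertical axis, percent) that hold the letters of a GC box, a CCAAT box or a TATA box, by the arrays on which the gene was well above background (horizontal axis), with 95% Wilson intervals as bars. GC box letters stand in 61.7% of promoters of genes detected on every array and in 26.9% for no array.

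The MAA channel of the same arrays gave nearly the same counts of detection. There 10424 genes passed on every array, 2980 on some and 2613 on none, against 10397, 2916 and 2704 in the control channel. Lhcgr passed on 0 of 12 arrays in that channel, Star, Cyp17a1 and Insl3 on 12 of 12, and Cyp11a1 on 2 of 12, the 24 h arrays with 5 mM MAA of replicate 1 and replicate 2. These counts are given side by side without a test.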

How the data were processed

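RNA of untreated and MAA-treated TM3 cells was measured on 12 Agilent arrays of 2 colours. The deposited scanner files give, per spot and channel, a signal intensity that the authors had processed in Feature Extraction (9.5.3.1): background was subtracted, trends over the slide were removed and the dyes of an array were balanced linearly and by LOWESS. Other columns hold flags and positions of spots. The deposited table of ratios for each array was not used.

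Of 45018 spots per array, 1639 control spots were left out, as were spots marked as outliers (median 136 per array), and repeated spots were averaged to 41174 probes. Symbols were given to 22147 probes, 22072 of them through an accession, for 16017 genes. The log2 processed signals of the 12 control channels were quantile normalized. A class of detection needed a kept spot on at least 10 arrays. Signal over background limits what can be seen, and the number of arrays limits the precision.

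Differences over 3, 8 and 24 h were tested with the moderated F test and contrasts of limma, on the mean of the 2 arrays of the same time and replicate number, with the replicate number, which is also the dye, as a term, and Benjamini-Hochberg adjustment over all probes (threshold 0.05). A gene called higher or lower at 24 h passed the contrast. Counts of such genes, and the shares of all genes beside them, include genes not detected on every array. Within a slide, arrays of the same dye were compared. On simulated data the fit returned the sizes put in, but it called most of the changed probes only where many probes had changed and none where few had, so a gene that did not pass is not shown to be unchanged.

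Named genes were the 5 markers, members of fixed lists with values for up to 4 of the first detected in list order, and the 10 genes with the largest range between time means among those past the test and detected on all 12 arrays. Further genes were named after their values were seen, as the text says beside most of them. Members and lists were chosen with earlier results of these data known. Values of some list members, and flags on them, are not reported here, though the counts of each list include them. List members whose symbol was given to no probe here, such as Gapdh, Oxtr and Erbb2, were not analysed. Alternatives covered the detection flag, the number of arrays, the dye, the probe of a gene, normalization, background correction (normexp, offset 50), the terms of the fit, outlier spots and leaving out each array. Software was limma (3.58.1) in R (4.3.3), with the packages jsonlite (2.0.0) and data.table (1.17.8), and, for promoters and figures, Python (3.11.15) with numpy (2.4.6) and matplotlib (3.10.9).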

Additional observations from a re-analysis of the deposited data

Results flagged for a closer look

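In groups of 4 control channels of the same time, a single array stood far from the other 3 in 13 of 258 groups, and chance flags about 1 in 20 groups. The values are normalized signals. On the 3 h array beside 5 mM of replicate 2, Pdgfra was 44631 (others 38367 to 39302), Avpr1a 176 (others 160.2 to 162) and Mmp2 5476 (others 5957 to 6054). On the 24 h array beside 5 mM of replicate 1, Flt1 was 213 (others 148 to 154), Rara 154 (others 94.2 to 101) and Cmbl 3465 (others 3624 to 3645). On the 24 h array beside 1 mM of replicate 2, Ccl5 was 44.4 (others 39.3 to 39.8) and Igfbp7 49452 (others 55822 to 56455).

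Single arrays also stood apart for Adcy7 (518 at 3 h beside 5 mM of replicate 1, others 575 to 582), Lyz2 (315 at 8 h beside 1 mM of replicate 1, others 239 to 244), Pglyrp3 (85.9 at 8 h beside 5 mM of replicate 1, others 77.0 to 78.2), Gsta2 (7.58 at 24 h beside 1 mM of replicate 1, others 13.4 to 14.1) and Prl2c5 (88269 at 3 h beside 1 mM of replicate 2, others 75745 to 77742).

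In the MAA channel, whose values are otherwise not described here, Cyp11a1 was well above background on 2 of 12 arrays, where the control channel passed on 0. The 2 are the 24 h arrays with 5 mM MAA of replicate 1 and replicate 2, on both probes of the gene. The difference was not tested.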

How the results depend on the processing

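The counts of detected genes (10397) and of genes with a mean signal over 200 (8696) stayed within 1.5 times under every alternative tried for them, and lay between 10397 and 10441 and between 8664 and 8732 when each array was left out in turn. The count of probes that passed the test over time, 13321, lay between 12258 and 13259 with each array left out and was 12259 without the replicate block, where the deviations of the replicates correlated across 23994 probes with r = -0.11 between 3 h and 8 h, 0.21 between 3 h and 24 h and 0.55 between 8 h and 24 h. The count was 23243 with the 12 arrays separate and the replicate block, 21152 with an estimated correlation of the paired arrays (0.32), 23367 with the slide as a block and 23093 with the slide and replicate blocks. These 4 fits use the 12 arrays in place of the means of 2 and so have more residual degrees of freedom. The fit with the estimated correlation allows for likeness within the pairs, and the other 3 count arrays that may share RNA as separate samples. Of the 13321 probes, 12928 were among the 23243.

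Without normalization between arrays, the differences of Star and Cyp17a1 from 3 h to 24 h, which did not pass the test, turned from -0.19 and -0.25 to 0.45 and 0.39 log2. With quantile normalization, where the differences stayed as they were, both genes passed the test over time in these 4 fits, with adjusted p for Star and Cyp17a1 of 0.00482 and 0.0256 with the 12 arrays separate, 0.0122 and 0.0327 with the estimated correlation, 0.00619 and 0.0000699 with the slide as a block and 0.0440 and 0.000132 with the slide and replicate blocks. The calls of these 2 genes therefore depend on whether means of 2 arrays or the 12 arrays are fitted. The share of promoters with GGGCGG was 34.8 points higher for detected genes than for genes on no array, and 31.5 points with the 250 bases before the start alone. With other letters the difference was -0.371 points for CCAAT and -14.0 points for TATAAA, which are other motifs. Cyp11a1 passed on 83.3% of arrays with the weaker flag. With signal asked for on at least 6 of 12 arrays the detected genes rose from 2 to 4 on the Sertoli cell list, from 3 to 6 on the germ cell list and from 3 to 5 on the endothelial list. By the probe of a gene with the fewest arrays, those of the Sertoli cell list and of other organs fell from 2 to 1 each. After the normexp background correction, whose offset of 50 is added to every signal, the mean log2 signal rose from 8.70 to 9.45 for Insl3, from 6.61 to 8.07 for Star, from 6.20 to 7.63 for Cyp17a1, from 1.87 to 6.74 for Cyp11a1 and from 1.33 to 6.65 for Lhcgr. The limits of 50 and 200 do not carry over to that scale. The cause of these differences was not tested. The 10 genes named for their range over time kept their direction and passed the test under each alternative. Dim genes are limited by the signal over background, and detection of genes near the lowest passing signal depends on the array.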
